A study of Mus musculus with 21 samples.

Results

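Expression of 9 genes through which beta cells take up or sense glucose, hold their membrane potential, respond to incretins and fatty acids, and load zinc into insulin granules was followed on 21 arrays. The genes were Slc2a2, G6pc2, Abcc8, Kcnj11, Glp1r, Gipr, Ffar1, Slc30a8 and Trpm5. They were chosen by symbol, through the RefSeq accessions that the array assigns to its probes, and are 9 of the 20145 genes with a symbol on the array. RNA came from MIN6m9 cells, a subclone of the mouse insulinoma line MIN6, in 2 experiments. In the fatty acid experiment, wild-type cells were left untreated or received 400 uM oleate or 400 uM palmitate for 48 h (3 arrays each). In the PERK experiment, MIN6m9 cells carrying Fv2E-PERK, a PERK kinase fused to a domain that the small molecule AP20187 dimerises, were given 1 nM of it for 6, 12, 24 or 48 h. Fv2E-PERK cells given the mock treatment (ethanol vehicle) and wild-type cells given the mock treatment were the controls, with 2 arrays per group. The harvest time of the untreated and mock cells, the promoter of the transgene and whether the Fv2E-PERK line is a single clone are not stated in the labels. A wild-type group with AP20187 is not analysed here. Nothing in the labels says that replicates came from separate cultures, so a p-value here covers the spread of these arrays alone, and that spread may be technical.

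In a beta cell, glucose enters through a transporter such as GLUT2 and its metabolism raises the ratio of ATP to ADP. ATP closes the KATP channel, built from the pore subunit Kir6.2 and the sulfonylurea receptor SUR1, and the membrane depolarises, calcium enters and insulin granules are released. Incretin hormones from the gut act through receptors that raise cyclic AMP, and long-chain fatty acids act through a receptor coupled to phospholipase C, and both amplify this release. PERK is a kinase of the endoplasmic reticulum stress response that phosphorylates eIF2alpha, which lowers general protein synthesis and favours translation of stress transcription factors such as ATF4.

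RefSeq promoter windows (GRCm38.p6, 250 bases before to 50 after a transcript start) were at hand for 5 of the 9 genes, Slc2a2, G6pc2 (2 windows), Glp1r, Ffar1 and Trpm5. Those of Ffar1 (chr7:30861421-30861720, minus strand), the first window of G6pc2 (chr2:69210823-69211122, plus strand) and Glp1r (chr17:30901617-30901916, plus strand) are shown as those of the receptors and the enzyme with a window that fell at all 4 AP20187 times. They are written 5′ to 3′ along the gene, with capitals marking each E-box, CANNTG, the letters that basic helix-loop-helix proteins bind.
Ffar1: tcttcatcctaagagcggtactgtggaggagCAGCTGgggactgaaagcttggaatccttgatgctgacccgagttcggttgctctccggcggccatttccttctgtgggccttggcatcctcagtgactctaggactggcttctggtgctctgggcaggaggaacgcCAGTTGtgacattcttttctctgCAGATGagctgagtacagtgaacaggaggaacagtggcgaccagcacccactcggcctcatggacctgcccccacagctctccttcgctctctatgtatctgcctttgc
G6pc2: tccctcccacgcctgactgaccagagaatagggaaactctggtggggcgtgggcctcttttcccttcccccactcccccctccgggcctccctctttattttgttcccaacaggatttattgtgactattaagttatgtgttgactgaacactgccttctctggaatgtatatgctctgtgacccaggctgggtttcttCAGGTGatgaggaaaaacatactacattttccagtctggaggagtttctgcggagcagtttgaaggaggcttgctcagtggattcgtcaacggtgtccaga
Glp1r: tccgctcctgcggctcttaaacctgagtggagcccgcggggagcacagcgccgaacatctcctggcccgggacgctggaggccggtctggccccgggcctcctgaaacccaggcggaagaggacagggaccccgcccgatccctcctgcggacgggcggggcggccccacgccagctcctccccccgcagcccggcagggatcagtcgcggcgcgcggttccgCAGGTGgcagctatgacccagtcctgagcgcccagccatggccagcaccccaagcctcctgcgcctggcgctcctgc
The Ffar1 window holds 3 E-boxes and the other 2 printed windows 1 each, with the Glp1r E-box starting 27 bases before the start site. The second G6pc2 window, not shown, holds 4. An E-box is present in 72.3% of all 32851 RefSeq windows of this length. The letters TGATGNAA, the core of the composite element bound by C/EBP and ATF proteins, and TGACGTCA, the cAMP response element, were searched on both strands. They were found in none of the members' windows, and in 3.97 and 1.79% of all windows. The homeodomain core TAAT, found in 58.0% of all windows, occurred in the windows of G6pc2, Slc2a2 and Trpm5. The palindrome of HNF1, a regulator of liver and islet genes, was found in no member's window and in 0.00913% of all windows.

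Signals are given as log2 of the processed spot signal minus the 75th percentile of the array, so that 0 is the level of that percentile and 1 unit is a doubling. Levels of different genes come from different probes and are not compared. Of the 10 beta cell markers fixed for this line, all were measured and 9 or 10 were well above background on every array. The share of probes well above background ran from 46.8 to 56.9%. Untreated replicate 2 stood apart from the other untreated arrays (SD of the log2 difference 0.69 and 0.67, against 0.29 to 0.39 between replicates elsewhere). A gene was taken to rise or fall where the adjusted p of limma over all entries tested was under 0.05. By that rule 20% of 21283 entries were called with palmitate, 0.836% with oleate, and 61.8 to 67.7% of 23389 entries at the AP20187 times against Fv2E-PERK mock cells. The split of these calls rests on the scaling. Higher calls made up 37.0% with palmitate, 39.9% with oleate, 54.4% in palmitate against oleate, and 38.4, 40.1, 40.1 and 44.0% at 6, 12, 24 and 48 h. With arrays scaled to their spike-in probes, which report RNA added during labelling, these shares were 87.6, 75, 93.0, 89.4, 88.0, 93.5 and 88.4%. With quantile normalization they were 51.7% for oleate and 49.0% at 6 h, and in the authors' deposited log2 values 69.7% for oleate and 35.9% for palmitate against oleate. Spike-in scaling raised the median change of all entries by 0.18 with palmitate and by 0.66, 0.72, 0.93 and 0.58 at the 4 times in turn, and quantile normalization raised it by 0.18, 0.16 and 0.14 at 6, 12 and 24 h. All changes below are relative to the 75th percentile of the array, and the median change of all entries on that scale was -0.05 with palmitate and -0.22, -0.19, -0.20 and -0.07 at the 4 times.

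**Figure D1:**
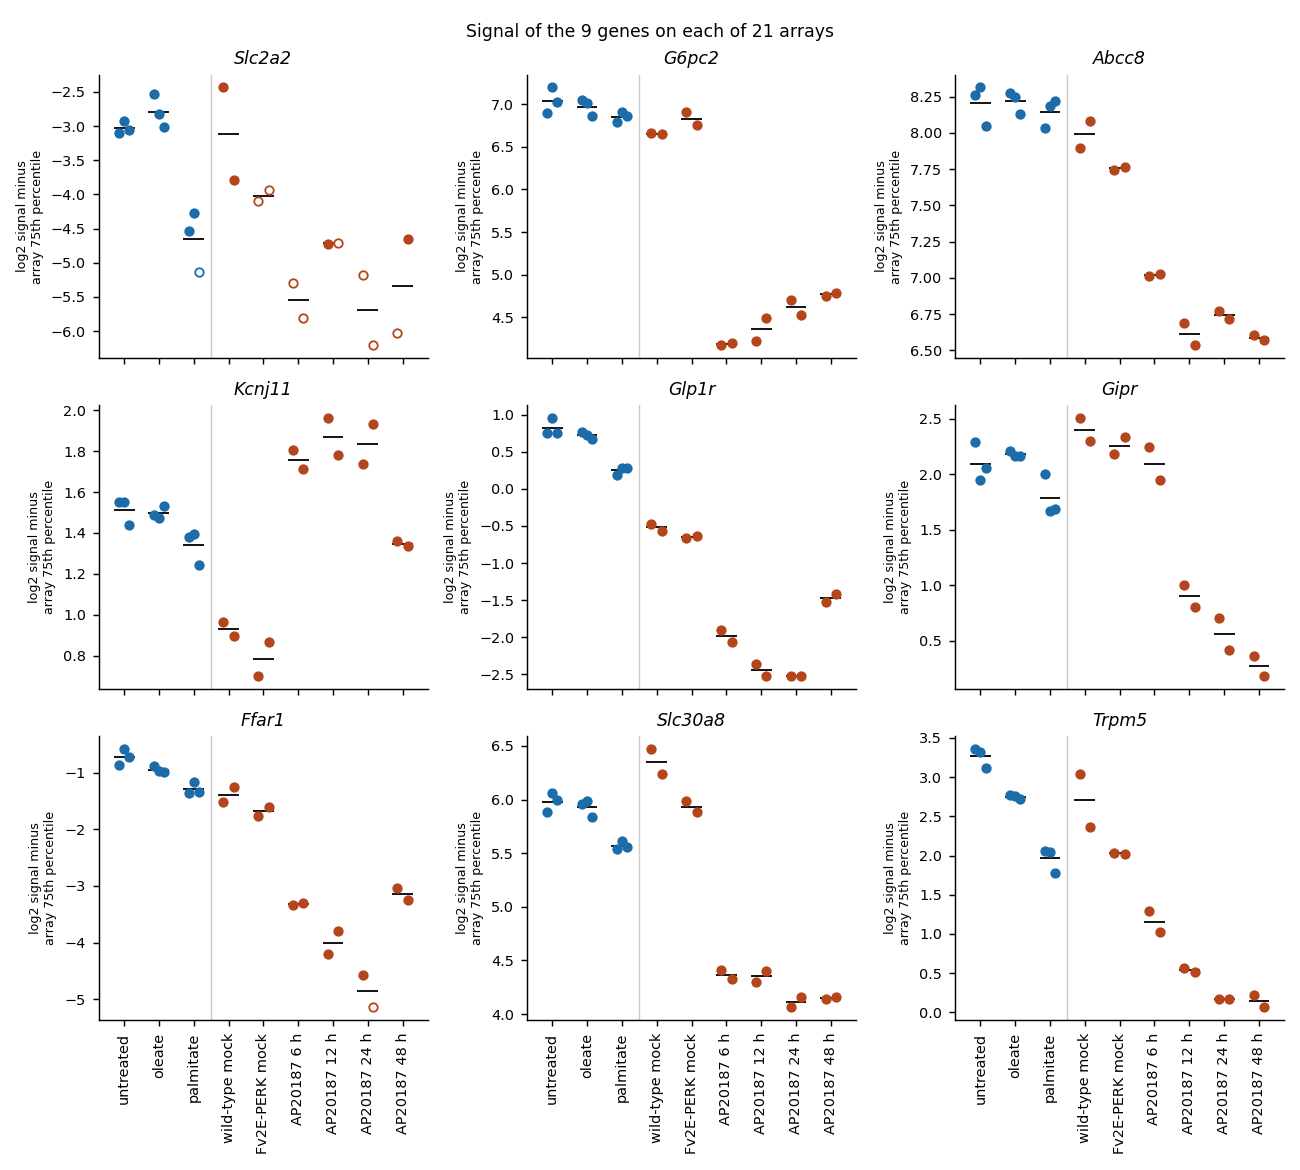
Signal of each of the 9 genes on all 21 arrays, as log2 minus the array's 75th percentile (y axis, own range per gene), by group (x axis), with the fatty acid experiment in blue and the PERK experiment in orange. Points are arrays, bars are group means and open points are not well above background. The points of Kcnj11 lie above the Fv2E-PERK mock points at all 4 AP20187 times, while those of G6pc2, Abcc8, Glp1r, Ffar1, Slc30a8 and Trpm5 lie below. Of all entries tested, 82.5 to 84.7% did not overlap mock at these times.

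Palmitate against untreated cells asked which of these genes a saturated fatty acid changes. Palmitate lowered 5 of the 9 genes, the glucose transporter Slc2a2, the cation channel Trpm5, the receptors Glp1r and Ffar1 and the zinc transporter Slc30a8, and raised none. The other 4, including both KATP channel subunits, did not pass the test. Of all entries 12.6% fell and 7.41% rose in this comparison. The median change of the 9 genes was -0.41, against -0.05 for all entries. Slc2a2 is included in these figures, but was tested only through the untreated and oleate arrays, where it is high.

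Slc2a2, which encodes GLUT2, the main glucose transporter of rodent beta cells, had signals of -3.10, -2.92 and -3.06 in untreated cells. With palmitate they were -4.54, -4.28 and -5.13, so the groups did not overlap, as held for 37% of all entries in this comparison. The change was -1.62 ± 0.21 (SE, n = 3 and 3, limma adjusted p = 0.0022), or 0.325 times the untreated level. The gene passed the filter through the untreated and oleate arrays, where it is high. The lowest palmitate array was not well above background, and with normexp background correction the change was -0.60 and stayed past the threshold (limma adjusted p = 0.015).

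Trpm5 encodes a calcium-activated cation channel that helps depolarise the beta cell membrane. Its signals were 3.35, 3.32 and 3.12 in untreated cells and 2.06, 2.05 and 1.78 with palmitate. All 3 palmitate arrays were lower than all 3 untreated arrays, by -1.30 ± 0.09 (limma adjusted p = 0.00012), or 0.406 times. In this comparison 37% of all entries did not overlap. In bulk RNA, fewer cells that express a gene and less RNA per cell cannot be told apart.

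Glp1r and Ffar1 are receptors for the incretin GLP-1 and for long-chain fatty acids. Glp1r had 0.75, 0.95 and 0.75 in untreated and 0.18, 0.28 and 0.29 in palmitate-treated cells, a change of -0.56 ± 0.07 (limma adjusted p = 0.0016). Its dimmer probe gave -0.56 as well (limma adjusted p = 0.0044). Ffar1, a receptor for fatty acids such as those added here, had -0.87, -0.59 and -0.73 in untreated cells. With palmitate it had -1.36, -1.16 and -1.33, a change of -0.56 ± 0.085 (limma adjusted p = 0.0041). Neither gene's groups overlapped, as held for 37% of all entries.

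Slc30a8, which encodes ZnT8, the transporter that fills insulin granules with zinc, had 5.88, 6.06 and 5.99 in untreated cells and 5.54, 5.61 and 5.56 with palmitate. The change of -0.41 ± 0.065 (limma adjusted p = 0.0047) was the smallest of the 5 that passed. The calls of Glp1r, Ffar1 and Slc30a8 were lost with spike-in scaling (changes of -0.38, -0.37 and -0.23) and in the authors' deposited log2 values (-0.79, -0.78 and -0.64), while those of Slc2a2 and Trpm5 held in both.

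Among the 4 genes that did not pass, the receptor for the incretin GIP, Gipr, had a change of -0.31 (95% interval -0.57 to -0.05, limma adjusted p = 0.092). Its palmitate signals of 2.0, 1.67 and 1.69 overlapped the untreated signals of 2.29, 1.95 and 2.05. Kcnj11, the Kir6.2 pore of the KATP channel, changed by -0.17 (-0.31 to -0.04, limma adjusted p = 0.076). Its palmitate and untreated arrays did not overlap, as held for 37% of all entries. The interval for Abcc8, the SUR1 subunit, was -0.26 to 0.14 around -0.06, and that for G6pc2, the islet glucose 6-phosphatase catalytic subunit, was -0.38 to 0.01 around -0.19.

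Muscle transcripts moved with the palmitate groups. Of the 9 heart muscle markers, 8 were well above background on every untreated array and 3 to 5 on the palmitate arrays, and the log2 of their summed signal was 3.21 to 3.59 in untreated, 3.40 to 3.65 in oleate-treated and 0.41 to 0.93 in palmitate-treated cells. Tnnt2, Tnni3 and Mybpc3, which encode heart sarcomere proteins, were well above background on no palmitate array. The skeletal muscle list reached 4.69 on a palmitate array and 0.39 on the lowest one, against 0.82 to 0.93 in untreated cells. The part of these transcripts in the changes of the 9 genes was not tested. Without palmitate replicates 1 and 2, in which the skeletal muscle list was high, 4 of the 5 calls stood and Slc30a8 changed by -0.42 (limma adjusted p = 0.060). The palmitate array left, replicate 3, is the only array of this experiment on its slide, so that here slide and palmitate cannot be told apart. With the slide as a block all 5 calls stood, from -0.40 for Slc30a8 to -1.38 for Slc2a2. Without untreated replicate 2 all 5 calls stood, from -0.37 for Slc30a8 to -1.57 for Slc2a2.

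**Figure D2:**
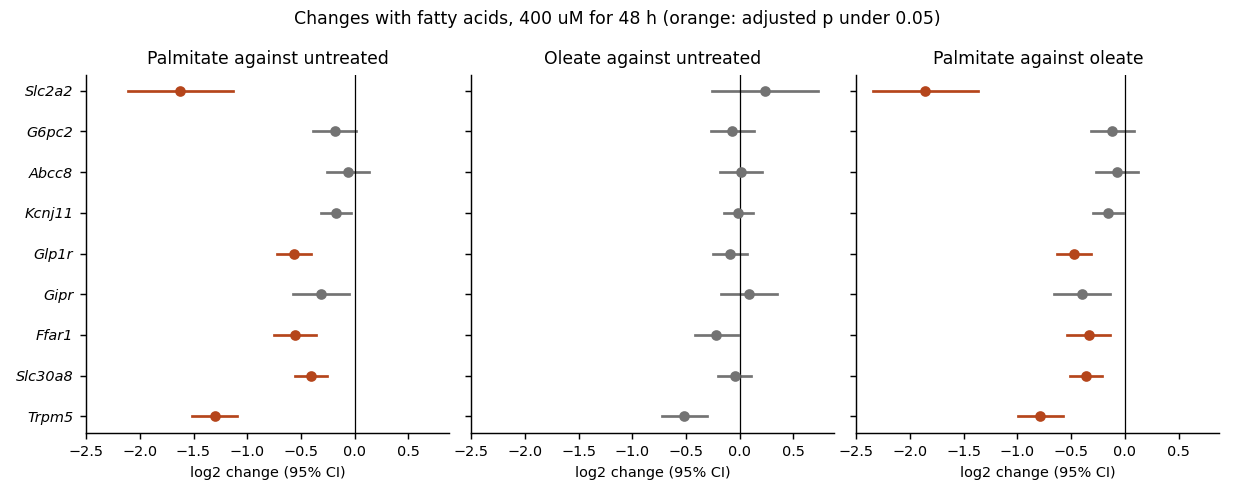
Log2 change of each gene in palmitate against untreated, oleate against untreated and palmitate against oleate (x axes), with 95% confidence intervals of the limma fit (n = 3 arrays per group). Orange marks an adjusted p under 0.05. Slc2a2 and Trpm5 lie farthest to the left with palmitate, at -1.62 and -1.30, and no gene is orange with oleate.

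Oleate, a monounsaturated fatty acid given at the same dose and for the same time, changed none of the 9 genes at the adjusted threshold of limma, where 0.334% of all entries rose and 0.503% fell. At an unadjusted p under 0.05, 2 of the genes would pass, Trpm5 and Ffar1. Trpm5 had 2.77, 2.76 and 2.72 with oleate, below every untreated array and above every palmitate array. Of all entries 25.3% did not overlap between oleate and untreated, and 38.5% between palmitate and oleate. The Trpm5 change of -0.52 ± 0.09 missed the threshold (limma adjusted p = 0.053), but passed with normexp (-0.47, limma adjusted p = 0.033), with the slide as a block and without palmitate replicate 3 (-0.52 in both, limma adjusted p = 0.034). Ffar1 changed by -0.22 (95% interval -0.41 to -0.02, limma adjusted p = 0.27).

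The 2 fatty acids were then set against each other. Slc2a2 was lower with palmitate than with oleate by -1.86 ± 0.21, Trpm5 by -0.79 ± 0.09, Glp1r by -0.47 ± 0.07, Slc30a8 by -0.36 ± 0.065 and Ffar1 by -0.34 ± 0.085 (limma adjusted p = 0.0015, 0.0017, 0.0044, 0.011 and 0.037). Of all entries 13.7% were called here, 7.48% higher and 6.27% lower. The Ffar1 call was lost on leaving out untreated replicate 3, any oleate array or palmitate replicate 1 or 3 (-0.30 to -0.36). Slc2a2 signals with oleate were -2.54, -2.83 and -3.01, all above the palmitate arrays, where 38.5% of all entries did not overlap. Without palmitate replicates 1 and 2, and likewise with spike-in scaling or in the authors' deposited log2 values, only the calls of Slc2a2 and Trpm5 stood. Slc2a2 was tested here too only through the untreated and oleate arrays, where it is high, and with normexp it differed by -0.62. Gipr, with 2.21, 2.17 and 2.17 with oleate, differed from palmitate by -0.40 (95% interval -0.66 to -0.14) and did not pass (limma adjusted p = 0.054). For Abcc8, Kcnj11 and G6pc2 the differences were -0.07, -0.16 and -0.12, and the intervals reached -0.27, -0.29 and -0.32.

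The PERK experiment asked how the genes follow an artificially activated PERK kinase over time. With AP20187, G6pc2, Abcc8, Glp1r, Ffar1, Slc30a8 and Trpm5 fell at all 4 times and Gipr fell from 12 h on, while Kcnj11 rose at all 4 times. Of the 8 genes other than Slc2a2, 1 rose and 6 fell at 6 h, and 1 rose and 7 fell at each later time. Slc2a2 is left out because it was well above background on no mock array and was tested only through the wild-type mock arrays. Of all entries 64.9, 67.7, 67.4 and 61.8% were called in these comparisons, with 40, 40.5, 40.4 and 34.6% lower and 24.9, 27.1, 27 and 27.2% higher. The median change of these 8 genes was -1.10, -1.53, -1.84 and -1.62 in turn, against -0.22, -0.19, -0.20 and -0.07 for all entries. Mock, 6, 12 and 24 h arrays of Fv2E-PERK cells lay on 1 slide and the 48 h arrays on another, so that slide and group cannot be told apart at 48 h. Markers of beta cells and of other cell types moved as well. Of the 10 beta cell markers, 10 fell at 6 h and 8 at 48 h. Ucn3 is counted in both, but was well above background on no Fv2E-PERK mock or 6 h array. Like Slc2a2, it was tested only through the wild-type mock arrays. Both alpha cell markers tested fell, Gcg by 0.94 and 0.56 and Ttr by 1.38 and 1.21 at 6 and 48 h, as did the delta cell marker Sst, by 0.56 and 0.97. The PP cell marker Ppy fell by 1.04 at 6 h and rose by 1.31 at 48 h, and the epsilon cell marker Ghrl rose by 1.95 at 48 h. The summed log2 signal of the heart muscle list was 0.12 to 0.26 in mock cells, 1.53 to 1.63 after 6 h and 0.87 to 0.90 after 48 h. Of its 4 members tested, 2 rose and 1 fell at 6 h (Ryr2 by 2.32 and Nppa by -0.74, for example) and 4 rose at 48 h. Myh6 is among the 4 that rose, but was tested only through the 48 h arrays, where it is high. Of the 5 skeletal muscle markers tested, 1 rose at both times, and 2 fell at 6 h and 1 at 48 h. The only exocrine marker tested, Spp1, fell by 0.94 at 6 h, and of 2 mesenchymal, endothelial and immune markers 1 rose and 1 fell at 6 h. The part of these lists in the changes of the 9 genes was not tested.

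G6pc2 dephosphorylates glucose 6-phosphate and so opposes glucokinase at the entry of glycolysis. Its signals were 6.91 and 6.75 in mock cells, 4.17 and 4.20 after 6 h, 4.23 and 4.49 after 12 h, 4.71 and 4.53 after 24 h and 4.76 and 4.79 after 48 h. The fall was deepest at the earliest time, -2.65 ± 0.11 at 6 h (n = 2 and 2, limma adjusted p = 1.2e-06), or 0.160 times the mock level. At 12, 24 and 48 h it was -2.47, -2.21 and -2.06, all with the same SE. The step from 6 to 12 h, from 12 to 24 h and from 24 to 48 h did not pass by itself (0.18, 0.26 and 0.15), but 48 h lay above 6 h by 0.59 ± 0.11 (limma adjusted p = 0.0017), a difference that crosses slides.

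Slc2a2 could not be followed in Fv2E-PERK cells. It was well above background on neither mock, 6 h nor 24 h array and on 1 of 2 arrays at 12 h and at 48 h, and it entered the fit through the wild-type mock arrays alone. Its signals were -4.10 and -3.93 in mock cells and between -6.21 and -4.66 with AP20187. No fold is given, since the mock arrays themselves give no level above background.

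Abcc8 and Kcnj11 encode the SUR1 and Kir6.2 subunits that assemble into the KATP channel, and on chromosome 7 Abcc8 is the next protein-coding gene after Kcnj11 in the RefSeq annotation. Kcnj11 rose and Abcc8 fell, except that Abcc8 at 6 h was 0.02 above mock with quantile normalization. Abcc8 had 7.74 and 7.77 in mock cells, 7.01 and 7.03 after 6 h, 6.69 and 6.53 after 12 h, 6.77 and 6.72 after 24 h and 6.60 and 6.57 after 48 h. Each AP20187 array was lower than both mock arrays. Of all entries 83.9, 84.7, 82.5 and 83.4% did not overlap mock at 6, 12, 24 and 48 h. The changes were -0.74, -1.14, -1.01 and -1.17, each ± 0.09 (limma adjusted p = 0.00014, 1.1e-05, 2.1e-05 and 1.4e-05). Of the 3 steps between times, that from 6 to 12 h passed (-0.41 ± 0.09, limma adjusted p = 0.021), where 14.7% of entries were called (7.19% higher and 7.5% lower), and it was lost without either 6 h array (-0.42 and -0.40) or 12 h replicate 2 (-0.33).

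Kcnj11 had 0.70 and 0.87 in mock cells, 1.80 and 1.71 after 6 h, 1.96 and 1.78 after 12 h, 1.74 and 1.93 after 24 h and 1.36 and 1.33 after 48 h. Here every AP20187 array was higher than both mock arrays, where 82.5 to 84.7% of all entries did not overlap mock in either direction. The gene rose by 0.97, 1.09, 1.05 and 0.56, each ± 0.10 (limma adjusted p = 7.6e-05, 3.3e-05, 4.3e-05 and 0.0016), or 1.96, 2.12, 2.07 and 1.48 times. The fall from 24 to 48 h, -0.49 ± 0.10, passed (limma adjusted p = 0.0054) and crosses slides. In that step 48.8% of entries were called, 25.6% higher and 23.1% lower, and the dimmer probe gave -0.24 (limma adjusted p = 0.17). The dimmer Kcnj11 probe rose by 0.69, 0.74 and 0.47 at 6, 12 and 24 h (limma adjusted p = 0.0025, 0.0014 and 0.015). At 48 h it changed by 0.23 and did not pass (limma adjusted p = 0.18), and its 48 h arrays overlapped the mock arrays.

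The difference between the 2 genes is free of any constant that scaling adds to an array. With the brighter probe of each gene, Kcnj11 gained 1.71, 2.23, 2.06 and 1.73 log2 units on Abcc8 at 6, 12, 24 and 48 h. The gap was smaller with the dimmer probes. These changed by 0.69, 0.74, 0.47 and 0.23 for Kcnj11 and by -0.67, -1.13, -1.05 and -0.94 for Abcc8. The separate directions do depend on the scaling. The Abcc8 call at 6 h was lost with quantile normalization (limma adjusted p = 0.87), and with spike-in scaling its changes of -0.07, -0.42, -0.08 and -0.58 did not pass. Relative to the median of all entries under spike-in scaling these were -0.51, -0.95, -0.81 and -1.10. The same values hold without spike-in scaling by construction, since that scaling only adds a constant to each array. They are therefore no separate test of the Abcc8 fall. With quantile normalization Abcc8 passed at 12, 24 and 48 h with smaller changes of -0.43, -0.52 and -0.64. Kcnj11 rose under quantile, normexp and spike-in scaling at all 4 times when its brighter probe was used.

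**Figure D3:**
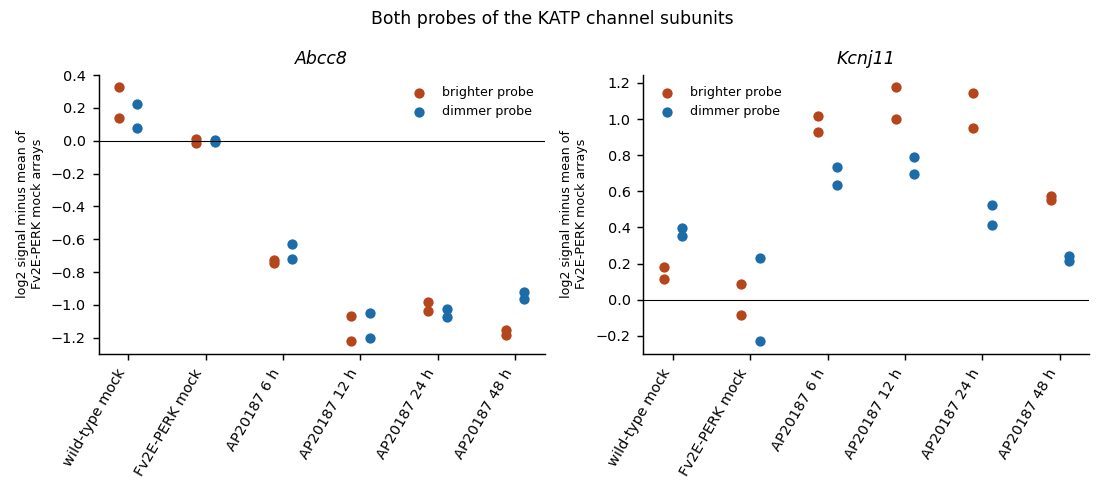
Signal of both probes of Abcc8 (left) and Kcnj11 (right) in the PERK experiment, as log2 signal minus the mean of that probe on the 2 Fv2E-PERK mock arrays (y axis), by group (x axis). Points are arrays, with the brighter probe in orange and the dimmer one in blue. All AP20187 points of Abcc8 lie below 0 for both probes, and all those of Kcnj11 lie above 0, with the dimmer probe of Kcnj11 closer to 0. With quantile normalization the brighter Abcc8 probe at 6 h gave 0.02 instead.

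Trpm5 was lower at each of the 4 times. Its signals went from 2.03 and 2.02 in mock cells to 1.29 and 1.03 after 6 h, 0.57 and 0.51 after 12 h, 0.17 and 0.17 after 24 h and 0.22 and 0.06 after 48 h. The changes were -0.87, -1.49, -1.86 and -1.88, each ± 0.19 (limma adjusted p = 0.0044, 0.00021, 6.3e-05 and 7.1e-05). None of the 3 steps between neighbouring times passed by itself (-0.62, -0.37 and -0.03, limma adjusted p = 0.067, 0.19 and 0.91). The 6 and 12 h arrays did not overlap, nor did the 12 and 24 h arrays, as held for 64.5 and 62.9% of all entries in turn. With normexp the step from 6 to 12 h passed (-0.59, limma adjusted p = 0.029). From 6 to 48 h the fall of -1.01 ± 0.19 passed (limma adjusted p = 0.0022). The call at 6 h was lost with spike-in scaling, at -0.21.

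The receptors act at the cell surface, Glp1r and Gipr through cyclic AMP and Ffar1 through phospholipase C. Glp1r signals were -0.66 and -0.63 in mock cells, -1.90 and -2.06 after 6 h, -2.36 and -2.52 after 12 h, -2.52 and -2.53 after 24 h and -1.52 and -1.41 after 48 h. The change was -1.33 ± 0.09 at 6 h and reached -1.88 ± 0.09 at 24 h (limma adjusted p = 8.5e-06 and 1.6e-06), or 0.272 times mock. The step from 6 to 12 h, -0.46 ± 0.09, passed (limma adjusted p = 0.016), but not without 6 h replicate 1 or 12 h replicate 2 (-0.38 each) or with the dimmer probe (-0.36). The change was smaller at 48 h, -0.82 ± 0.09 (limma adjusted p = 9.5e-05), with 48 h above 24 h by 1.06 ± 0.09 (limma adjusted p = 0.00014). The dimmer probe gave -1.50, -1.86, -1.37 and -0.57 and passed at each time. With spike-in scaling the 48 h call was lost, at -0.24.

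Gipr, the other incretin receptor, passed from 12 h on. Its signals of 2.24 and 1.95 after 6 h overlapped the mock signals of 2.18 and 2.33. The change of -0.16 did not pass (95% interval -0.51 to 0.18, limma adjusted p = 0.37). They were 1.00 and 0.80 after 12 h, 0.71 and 0.41 after 24 h and 0.36 and 0.18 after 48 h, with changes of -1.36, -1.70 and -1.99, each ± 0.15 (limma adjusted p = 8.4e-05, 2.6e-05 and 1.6e-05). The step from 6 to 12 h passed, -1.20 ± 0.15 (limma adjusted p = 0.0054), and the later steps of -0.34 and -0.29 did not. At 48 h Gipr was at 0.252 times mock and Glp1r at 0.566 times.

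Ffar1 had -1.77 and -1.61 in mock cells, -3.34 and -3.31 after 6 h, -4.20 and -3.80 after 12 h, -4.57 and -5.14 after 24 h and -3.04 and -3.24 after 48 h. Its fall of -3.17 ± 0.205 at 24 h (limma adjusted p = 5.8e-06), or 0.111 times mock, rests on a group in which 1 of the 2 arrays was not well above background. With normexp the change there was -1.48, smaller than that of G6pc2, Slc30a8 and Trpm5 at the same time (-2.15, -1.80 and -1.76). At 6, 12 and 48 h the changes were -1.64, -2.31 and -1.46 (limma adjusted p = 0.0002, 2.5e-05 and 0.00039). From 24 to 48 h Ffar1 rose by 1.72 ± 0.205 (limma adjusted p = 0.00045). The step from 12 to 24 h, -0.86 ± 0.205, passed as well (limma adjusted p = 0.018, where 27.5% of entries were called, 15% higher and 12.5% lower). It was lost without 12 h replicate 2 (-0.65), without 24 h replicate 2 (-0.57) and with normexp (-0.21). With normexp the change at 12 h was -1.27 and the step from 24 to 48 h was 0.40. The latter crosses slides, as does the same step of Glp1r.

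Slc30a8 was already lower at 6 h. Its signals were 5.99 and 5.88 in mock cells, 4.41 and 4.32 after 6 h, 4.30 and 4.41 after 12 h, 4.06 and 4.16 after 24 h and 4.14 and 4.16 after 48 h. The changes were -1.57, -1.58, -1.82 and -1.78, each ± 0.095 (limma adjusted p = 5.6e-06, 3.7e-06, 2.4e-06 and 3.2e-06), or 0.337 to 0.282 times mock. None of the steps between neighbouring times passed, nor did 48 h against 6 h (-0.21, limma adjusted p = 0.083).

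**Figure D4:**
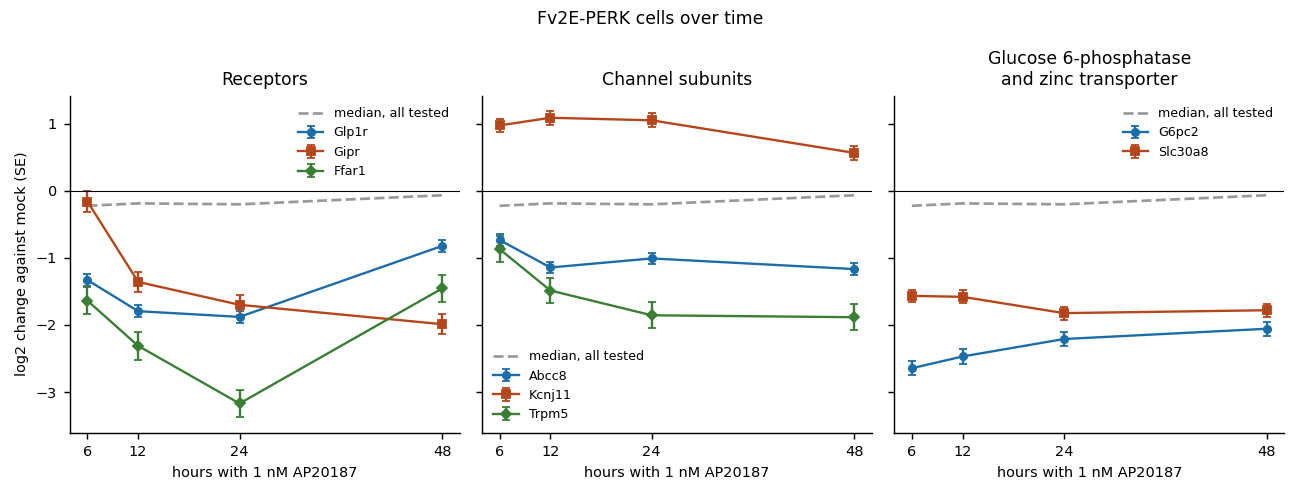
Log2 change against Fv2E-PERK mock cells (y axis) after 6, 12, 24 and 48 h with 1 nM AP20187 (x axis) for 8 of the genes; error bars are SE of the limma fit, n = 2 arrays per time, and the dashed line is the median of all entries tested. Slc2a2 is left out because its mock arrays were not well above background. Glp1r and Ffar1 turn back after 24 h, Gipr starts near the median line at 6 h and ends at -1.99, and Kcnj11 alone lies above 0.

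An F test for any change over the 4 times passed for all 8 genes other than Slc2a2, where 86.9% of all entries passed. Slc2a2 did not pass (limma adjusted p = 0.092). That does not show an absence of change, since its mock arrays were not well above background. At 48 h against 6 h, where 60.8% of entries were called, 33.2% higher and 27.6% lower, G6pc2 and Glp1r were higher and Abcc8, Kcnj11, Gipr and Trpm5 lower. This comparison crosses slides, and with spike-in scaling 2 of these 6 calls stood, those of Gipr and Trpm5. The Kcnj11 call was lost without 6 h replicate 1 (-0.36), and the dimmer probes gave 0.93 for Glp1r and -0.27 for Abcc8.

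Wild-type mock cells lay on the same slide as the 48 h arrays, and against them Kcnj11 was higher and 7 genes were lower at 48 h, where 63.8% of entries were called, 36.3% lower and 27.5% higher. Higher calls made up 43.1% of these, and 89.4% with spike-in scaling. Slc2a2 is left out of these counts, since it was tested only because it was well above background in the wild-type mock arrays. This comparison differs in genotype as well as in AP20187 and was added after the data had been seen. G6pc2 was lower by -1.88 ± 0.11, Slc30a8 by -2.20 ± 0.095, Gipr by -2.13 ± 0.15 and Trpm5 by -2.56 ± 0.19. Abcc8 was lower by -1.40 ± 0.09, Ffar1 by -1.75 ± 0.205 and Glp1r by -0.95 ± 0.09, and Kcnj11 was higher by 0.42 ± 0.10 (limma adjusted p = 0.0070). The direction of Kcnj11 turned with its dimmer probe, which gave -0.15 (limma adjusted p = 0.37), and the mean of both probes gave 0.13. Abcc8 gave -0.62 with quantile normalization.

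Fv2E-PERK and wild-type cells were also compared without AP20187. Slc30a8 was lower in the Fv2E-PERK line by -0.42 ± 0.095 and Trpm5 by -0.68 ± 0.19 (limma adjusted p = 0.019 and 0.043), where 20% of entries were called, 10.8% lower and 9.23% higher, and 6 other genes did not pass. Wild-type signals were 6.47 and 6.24 for Slc30a8 and 3.04 and 2.37 for Trpm5. The wild-type arrays thus differ among themselves in Trpm5, and without wild-type mock replicate 1 the changes were -0.31 and -0.34 and neither passed. Slc30a8 was also lost without Fv2E-PERK mock replicate 2 (-0.37), and Trpm5 on leaving out any other array of the experiment but wild-type mock replicate 2, without which it was -1.02. Both calls were also lost with quantile and spike-in scaling, and the 2 lines lay on different slides. Slc2a2 had -2.43 and -3.79 in wild-type mock cells, the only group of this experiment with both arrays well above background, and no fold is given.

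Set side by side, the change with palmitate and that with AP20187 at 24 h were -0.56 and -1.88 for Glp1r, -0.56 and -3.17 for Ffar1, -0.41 and -1.82 for Slc30a8 and -1.30 and -1.86 for Trpm5. The Ffar1 value at 24 h rests on a group in which 1 of 2 arrays was not well above background. With normexp its changes were -0.445 and -1.48. G6pc2 and Abcc8, which fell by 2.21 and 1.01 with AP20187 at 24 h, did not pass with palmitate, where their lower limits were -0.38 and -0.26, and Kcnj11, which rose with AP20187, had a palmitate change of -0.17. The experiments differ in agent, time and cell line and were hybridised apart, and the difference between them was not tested.

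**Figure D5:**
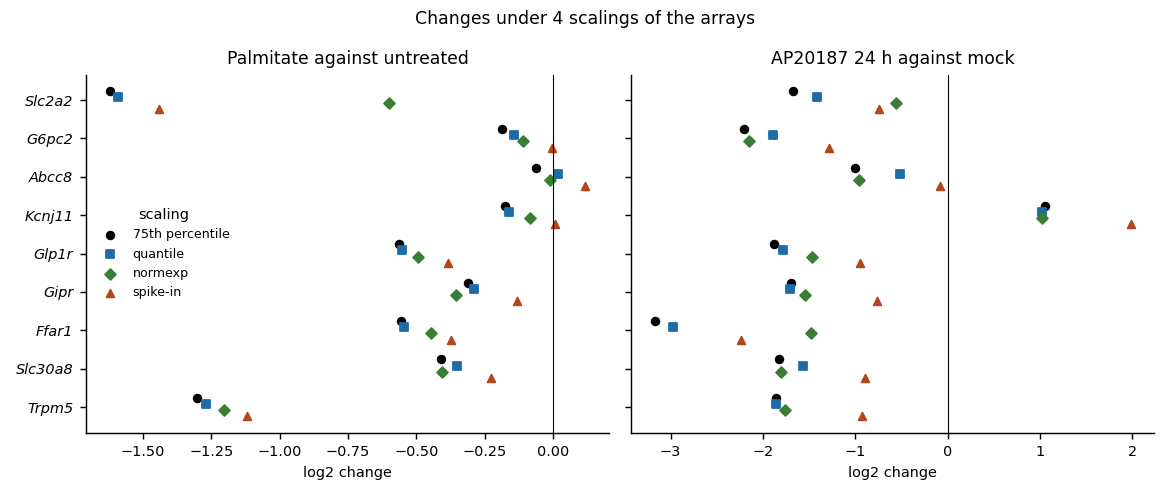
Log2 change of each gene (x axis) in palmitate against untreated (left) and AP20187 24 h against mock (right) under 4 ways of processing the arrays: 75th percentile, quantile normalization, normexp background correction and spike-in scaling. The spike-in values lie to the right of the others for most genes, such as -0.08 against -1.01 for Abcc8 at 24 h, and Kcnj11 lies above 0 at 24 h under all 4.

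Over the 12 arrays of the PERK experiment, which share the drop from mock to AP20187, the signals of Glp1r and Ffar1 correlated at r = 0.96, those of Abcc8 and Slc30a8 at 0.96 and those of Gipr and Trpm5 at 0.92. Kcnj11 had negative r with every other member there, from -0.96 with Glp1r to -0.56 with Gipr. Over the 9 arrays of the fatty acid experiment Kcnj11 instead had positive r with the other 8, for example 0.81 with Glp1r and 0.34 with Abcc8. Among 12863 genes tested in both experiments, those most like a member over all 21 arrays, each centred on its experiment's mean, were Ciao2a for G6pc2 (r = 0.99), Abhd4 for Abcc8 (0.98) and Irf2bp1 for Kcnj11 (0.98). For Glp1r it was Dazap2 (0.99), for Gipr Nit1 (0.98), for Ffar1 Ptpdc1 (0.98), for Slc30a8 Grrp1 (0.99) and for Trpm5 Gm10941 (0.99), and for Slc2a2, well above background on 12 of the 21 arrays, it was Pxt1 (0.90). These are descriptions over arrays that share the treatment groups.

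Other genes of the same roles were taken from lists fixed by function. Of 10 genes tested for glucose entry, phosphorylation and glucose 6-phosphatase, 2 rose and 6 fell at 48 h of AP20187 (median -0.54), where 27.2% of entries rose and 34.6% fell. Slc37a4, the transporter that brings glucose 6-phosphate to the endoplasmic reticulum enzyme, fell by 2.34 ± 0.07. The glucose transporter Slc2a1 fell by 2.27 ± 0.13 and Pfkfb3, a regulator of glycolysis, by 2.13 ± 0.10 (limma adjusted p = 2.6e-07, 4e-06 and 1.7e-06). Gckr, the glucokinase regulator, was not well above background in mock cells and has no fold, but is among the 2 that rose. It was tested only through the 48 h arrays, where it is high. With palmitate, where 7.41% of entries rose and 12.6% fell, 1 of 8 rose and 3 fell, Slc37a4 among them (-0.45 ± 0.08, limma adjusted p = 0.0070).

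Of 17 other channel genes tested, 4 rose and 9 fell at 48 h (median -0.33), with 27.2% of all entries rising and 34.6% falling. Among the potassium channels Kcna5 rose by 1.77 ± 0.15 and Kcnh6 fell by 1.56 ± 0.17 (limma adjusted p = 3e-05 and 1e-04). Of the calcium channel subunits Cacnb3 rose by 1.25 ± 0.14 and Cacna1d fell by 1.25 ± 0.13 (limma adjusted p = 0.00011 and 6.9e-05). With palmitate 2 of 18 rose and 2 fell (7.41 and 12.6% of all entries), and Kcnh6 (0.39 ± 0.09) and Cacnb3 (0.31 ± 0.06) were the 2 that rose.

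Of 14 other G protein-coupled receptors, 3 rose and 11 fell at 48 h (median -0.91), with 27.2% of all entries rising and 34.6% falling. The dopamine receptor Drd2 fell by 2.66 ± 0.34, the galanin receptor Galr1 by 1.64 ± 0.14 and the glucagon receptor Gcgr by 1.31 ± 0.08 (limma adjusted p = 0.00022, 2.7e-05 and 7.1e-06). Cckar, a cholecystokinin receptor, is among the 3 that rose, but was not well above background in mock cells and has no fold. It was tested only through the 48 h arrays, where it is high. With palmitate 2 of 13 rose and 3 fell (7.41 and 12.6% of all entries), and Galr1 and Gcgr were not among them (-0.04 and -0.50).

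Signalling genes below the receptors were listed next. Of 24 genes of cyclic AMP and phospholipase C signalling, 6 rose and 9 fell at 48 h (median -0.20), near the shares of all entries, 27.2 and 34.6%. Arrb1, which encodes beta-arrestin 1, fell by 1.78 ± 0.10 (limma adjusted p = 4.2e-06). Arrb2, the other beta-arrestin of the list, rose by 0.33 ± 0.09 (limma adjusted p = 0.012). Rapgef3, a cAMP sensor, was at least 1.46-fold higher at 48 h than in mock cells, in which it was not well above background. It is counted among the 6 rises, but was tested only through the 24 and 48 h arrays, where it is high. With palmitate 0 of 22 rose and 5 fell (7.41 and 12.6% of all entries), including the adenylyl cyclase Adcy5 (-1.47 ± 0.15, limma adjusted p = 0.00063) and Arrb1 (-0.45 ± 0.07, limma adjusted p = 0.0035). Adcy5 was not well above background in mock and 48 h cells, nor was Adcy3, another cyclase, in mock cells, and neither has a fold there. Adcy5 is counted among the 9 falls and Adcy3 among the 6 rises. In the PERK experiment Adcy5 was tested only through the wild-type mock arrays, and Adcy3 only through the 48 h arrays, where it is high.

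Of 11 zinc transport and binding genes, 3 rose and 5 fell at 48 h (median -0.07), where 27.2% of all entries rose and 34.6% fell. The metallothioneins Mt2 and Mt1, which bind zinc, fell by 0.73 ± 0.11 and 0.58 ± 0.12, and the transporter Slc30a5 by 0.61 ± 0.15 (limma adjusted p = 0.0007, 0.0034 and 0.0073). With palmitate 3 of 11 rose and 1 fell (7.41 and 12.6% of all entries). The fall was that of Mt2, -0.42 ± 0.07 (limma adjusted p = 0.0071), and the zinc importer Slc39a4 rose by 0.52 ± 0.13 with palmitate and fell by 0.45 ± 0.13 at 48 h (limma adjusted p = 0.028 and 0.014).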

How the data were processed

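Signals were measured on 21 single-colour Agilent arrays. Per the labels' protocols, RNA was labelled with Cy3. Per the file headers, the authors extracted spot intensity values with Agilent Feature Extraction 10.7.1.1. The deposited series matrix holds log2 values that differ from the scanner signal by 1 constant per array and 1 baseline per probe. In the PERK experiment that constant follows the 75th percentile, and in the fatty acid experiment it does not. The medians of its columns run from -0.32 to 0.35, and what the baseline was is unknown. The deposited flags mark spots well above background, saturated spots (0 here) and outlier spots, of which the outliers were left out.

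Here, spots of a probe were averaged, and log2 of the processed signal minus the array's 75th percentile was used. Probes were named by unversioned accession through a RefSeq table of GRCm38.p6 (26582 of 55681 probes). The probe brightest over all arrays stood for a gene. Abcc8, Glp1r and Kcnj11 have 2 probes and the other members 1. An entry was tested in an experiment if all arrays of 1 or more groups had it well above background. The 2 experiments were fitted apart in R 4.3.3 (limma 3.58.1, lmFit and eBayes) with 1 coefficient for every group, with Benjamini-Hochberg adjustment. Errors of changes are SE from that fit. Where a group had no array well above background, a fold is a bound, computed against the dimmest signal well above background. Groups and replicate numbers come from the titles; 1 wild-type mock array carries another replicate number in its source name. The number of arrays limits the precision.

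The members and lists were chosen with earlier results of these data known. All 9 members are named, with at most 4 related genes per role, those with the largest called change with palmitate or at 48 h. Arrb2 is named besides these, as the other beta-arrestin. Alternatives were quantile normalization, spike-in scaling, normexp (offset 50), the series matrix, no filter, the mean over probes, a replicate or slide block, fewer groups and arrays left out. The dimmer probes, the comparison with wild-type mock cells at 48 h and the steps between times were chosen after seeing the data. The fit was tested on simulated data.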

Additional observations from a re-analysis of the deposited data

Results flagged for a closer look

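For 6 of the 8 genes other than Slc2a2 the change with AP20187 differed between 48 h and 6 h, by a test of the difference itself in the limma fit. Of all entries 60.8% were called in this comparison, and the count is not read as a result about the genes as a group. Slc2a2 could not be followed in these cells. Gipr was lower at 48 h than at 6 h by -1.83 and Trpm5 by -1.01 log2 units, Abcc8 by -0.43 and Kcnj11 by -0.41. G6pc2 and Glp1r were higher at 48 h, by 0.59 and 0.51. In all 6 the arrays of the 2 times did not overlap, as held for 86% of all entries in this comparison. With spike-in scaling the calls of Gipr and Trpm5 stood and the other 4 were lost. The 48 h arrays lay on another slide than the 6 h arrays, so slide and time cannot be told apart in these differences.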

How the results depend on the processing

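The 9 genes in 13 comparisons gave 117 results, refitted under 32 settings in all. Of 2352 refitted values, 2182 kept their direction and their side of the threshold, and 58 of the 117 results did so in every setting run. Many refits left out an array of neither group compared. There the change itself cannot move and only its error can, so these counts alone do not measure robustness. Counts of members here include Slc2a2. Otherwise 94 calls were lost, 26 gained and 48 values without a call in either fit changed sign. Called directions turned for 2, Abcc8 at 6 h with quantile normalization (0.024) and Kcnj11 at 48 h against wild-type mock with its dimmer probe (-0.15). With spike-in scaling 1292 entries and 2 members were called with palmitate, 4 entries with oleate, 1378 and 2 in palmitate against oleate, 5 members at 6 h, and 8434 and 2 at 48 h against 6 h. It gave 1414 entries and 0 members between the mock groups, 487 and 1 from 6 to 12 h, 1719 and 0 from 12 to 24 h and 6693 entries from 24 to 48 h, and the share of higher calls went from 48.9, 54.5, 52.6 and (mock groups) 46.1% to 94.3, 72.7, 22.7 and 75.8%. In the series matrix values 549 entries and 2 members were called with palmitate and 409 and 2 against oleate. Normexp gave 94 entries and 1 member (Trpm5) with oleate and 0 members from 12 to 24 h, and quantile normalization 0 members between the mock groups and 2 from 12 to 24 h. Without the filter 2266 entries were called with palmitate, 26 with oleate, 1398 in palmitate against oleate and 1518 from 6 to 12 h, and 1 member between the mock groups. The slide block gave 1 member (Trpm5) with oleate. Without palmitate arrays 1 and 2 there were 1720, 40 and 1406 entries in the fatty acid comparisons and 2 members against oleate. With only the 2 groups compared there were 2599 entries with palmitate, 40 with oleate, 1338 and 0 members between the mock groups, 710 and 1 from 6 to 12 h and 2346 and 0 from 12 to 24 h. Leaving out single arrays gave 2674 to 3714 entries with palmitate, 22 to 139 and 0 to 1 member with oleate, 1398 to 3155 against oleate, 2642 to 5166 and 0 to 2 members between the mock groups, 561 to 3904 and 1 to 4 from 6 to 12 h, and 3586 to 6394 and 0 to 2 from 12 to 24 h. Where that left 1 array in a group, it was assumed to vary like the others. Deviations of same-numbered arrays correlated weakly, at -0.03 to 0.04 in the fatty acid and -0.01 to 0.13 in the PERK experiment. In the latter, both replicate numbers gave the same correlation for each pair of groups, so these are not separate values. Whether the numbers pair the samples cannot be decided from these correlations, since weak ones do not exclude a shared culture or batch. With the replicate block 3605 entries and 6 members were called with palmitate, Gipr being the gain, 54 entries with oleate, and 14422 entries and 8 members at 48 h. The causes of these changes were not tested. Signal over background limits Slc2a2 in the PERK experiment and Ffar1 at 24 h.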

Other observations

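Untreated and mock-treated wild-type cells are the same line in 2 experiments that were hybridised apart, and their levels were not tested against each other. Glp1r was at 0.82 ± 0.12 (SD, n = 3) in untreated and at -0.52 ± 0.06 (SD, n = 2) in wild-type mock cells. Kcnj11 was at 1.51 ± 0.065 and 0.93 ± 0.05, and Ffar1 at -0.73 ± 0.14 and -1.40 ± 0.19. G6pc2 (7.04 ± 0.15 and 6.65 ± 0.01), Abcc8 (8.21 ± 0.14 and 7.99 ± 0.13) and Slc30a8 (5.98 ± 0.09 and 6.36 ± 0.16) lay closer. Sst, the somatostatin gene and a delta cell marker, was 4.17 log2 units higher in Fv2E-PERK than in wild-type mock cells.

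Ffar4, a receptor for long-chain fatty acids like Ffar1, was well above background on no wild-type mock array and on both Fv2E-PERK mock arrays, where it was at least 2.70-fold higher. It was named after its values were seen.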
